A study of Mus musculus with 9 samples.

Results

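Distal accessible islands are stretches of nuclease-accessible chromatin in mouse embryonic fibroblasts (MEFs) that lie far from genes. They were chosen by their reads and their position. Reads of the TACh-seq table separated by at most 600 bp were joined into an island, and an island was kept when it held at least 20 reads and lay over 20 kb from every gene of the expression table. Of 26010 islands with at least 20 reads, 4971 (19.1%) were distal. The read number and the distance to genes therefore belong to the selection and are given below only as a description.

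TACh-seq reads short DNA fragments released from nuclei by the nuclease Cyanase. The labels of all 4 TACh-seq samples, 2 of wild-type (WT) and 2 of KOKD primary MEFs, name the same table of 4881417 reads, and no column of it names a library. KOKD cells are Fubp1 knockout MEFs transfected with Fubp2 siRNA, and the transfections with Fubp2 or non-target siRNA lasted 48 h at 100 nM. How many of the libraries the table holds is not known, so WT and KOKD were not compared and islands have no replicate error. RNA-seq came from another preparation, primary MEFs of Myc-Egfp+/+ mice, whose endogenous Myc gene carries green fluorescent protein (GFP), so that GFP reports MYC protein. These cells received the proteasome inhibitor MG-132 (20 µM) over 6 h, were sorted for low GFP (low-MYC, 2 libraries) or high GFP (high-MYC, 2 libraries) and were cultured overnight. The libraries within a group are technical replicates of 1 sort, so p-values measure the spread between those libraries and not between embryos. FUBP1, the protein that Fubp1 encodes, binds single-stranded DNA, and its ChIP-seq in primary MEFs at steady state gave 1 list of peaks.

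Much of the DNA that controls when a gene is transcribed lies outside the gene. Enhancers bind sequence-specific transcription factors, lose nucleosomes where these bind, and can act on a promoter across long stretches of DNA, and genes with intricate developmental expression often sit beside gene-poor regions that hold many enhancers. In fibroblasts AP-1, a dimer of FOS and JUN family proteins, is among the factors known to bind open distal elements, together with TEAD and RUNX factors, whereas promoters are typically rich in CpG dinucleotides and in sites for SP and ETS family factors. Accessibility alone does not show that an island is an enhancer or which gene it acts on.

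The sequence at the centre of 6 distal islands shows the material of the results that follow. They are the islands with the most distinct read positions among those under 20% soft-masked (annotated as repeats in the reference), at most 1 per cluster. Each line gives 300 bases of the plus strand of GRCm38 (mm10) around the densest point, the middle of the 200-bp window with most reads, and capitals mark each match to the AP-1 motif TGANTCA.

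Island between Ccnd1 and Tpcn2, chr7:145106455-145106754: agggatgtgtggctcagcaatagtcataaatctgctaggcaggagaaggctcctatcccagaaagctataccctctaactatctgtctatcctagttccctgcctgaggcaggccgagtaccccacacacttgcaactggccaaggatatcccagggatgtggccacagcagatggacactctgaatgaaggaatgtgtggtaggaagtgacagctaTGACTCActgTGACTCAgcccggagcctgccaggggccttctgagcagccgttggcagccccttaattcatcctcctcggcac

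Island between Trpm8 and Glrp1, chr1:88474601-88474900: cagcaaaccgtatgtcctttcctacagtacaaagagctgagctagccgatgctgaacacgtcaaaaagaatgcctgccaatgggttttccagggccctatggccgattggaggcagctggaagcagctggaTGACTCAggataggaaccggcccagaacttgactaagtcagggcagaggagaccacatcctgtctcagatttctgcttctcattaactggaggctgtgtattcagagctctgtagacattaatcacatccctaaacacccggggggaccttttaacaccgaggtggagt

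Island between Irf2bp2 and Gm31718, chr8:126666474-126666773: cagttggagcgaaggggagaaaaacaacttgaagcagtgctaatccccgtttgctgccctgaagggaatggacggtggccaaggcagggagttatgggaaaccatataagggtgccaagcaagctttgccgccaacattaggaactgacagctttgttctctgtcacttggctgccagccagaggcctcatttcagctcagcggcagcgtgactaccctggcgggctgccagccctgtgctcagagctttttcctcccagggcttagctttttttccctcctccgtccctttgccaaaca

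Island between Hes1 and Cpn2, chr16:30187937-30188236: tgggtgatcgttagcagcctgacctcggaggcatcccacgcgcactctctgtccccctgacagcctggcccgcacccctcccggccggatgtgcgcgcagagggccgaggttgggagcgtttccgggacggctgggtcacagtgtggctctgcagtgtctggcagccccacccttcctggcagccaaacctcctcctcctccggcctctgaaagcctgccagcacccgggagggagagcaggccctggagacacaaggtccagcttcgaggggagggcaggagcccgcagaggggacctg

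Island between Gas6 and Rasa3, chr8:13529439-13529738: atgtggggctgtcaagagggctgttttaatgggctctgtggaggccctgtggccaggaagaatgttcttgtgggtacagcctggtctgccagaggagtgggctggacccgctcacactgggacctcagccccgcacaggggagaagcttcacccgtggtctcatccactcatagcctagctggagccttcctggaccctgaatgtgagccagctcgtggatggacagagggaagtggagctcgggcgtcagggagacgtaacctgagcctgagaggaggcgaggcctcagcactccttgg

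Island between Ets1 and Gm10698, chr9:33241234-33241533: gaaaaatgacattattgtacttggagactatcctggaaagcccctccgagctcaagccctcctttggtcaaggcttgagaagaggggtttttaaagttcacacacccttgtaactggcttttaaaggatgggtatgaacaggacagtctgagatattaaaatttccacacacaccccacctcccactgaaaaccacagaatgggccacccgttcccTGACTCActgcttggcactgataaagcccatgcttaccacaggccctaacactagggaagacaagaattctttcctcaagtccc

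The window between Ccnd1, which encodes cyclin D1, and Tpcn2 held 2 AP-1 matches, the windows beside Glrp1 and Ets1 held 1 each, and the other 3 held none. The GC content was 68.7% in the window between Hes1, a Notch target gene, and Cpn2, the nearest gene. It was 61.0% in the window beside Rasa3, against 47.3% in the window beyond Ets1. The island between Ccnd1 and Tpcn2 was 8240 bp wide and held 841 reads with 683 distinct 5′ ends, and it began 72.9 kb from Tpcn2. The island beyond Ets1 held 577 reads, lay 479.7 kb from that gene and overlapped the annotated lincRNA Gm32171.

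Distal islands were narrower than islands inside genes or at gene starts, but little narrower than intergenic islands within 20 kb of a gene. Their median width was 2079 bp (quartiles 1467 and 2974 bp), against 2652 bp for the 21039 other islands and 2925 bp for the 9623 islands within 1 kb of a gene start. Their median read number was 118 (quartiles 91 and 164), against 152 for the other islands. Intergenic islands within 20 kb of a gene came close to distal ones, with medians of 2194.5 bp and 122 reads. Islands inside genes had medians of 2479 bp and 129 reads. Reads per kb had a median of 59.3 in distal islands and 59.9 in the others. Among the others the median was 59.1 in intergenic islands within 20 kb of a gene, 54.7 inside genes and 65.5 at gene starts. In all, distal islands covered 11945614 bp and held 722035 reads, 14.8% of those in islands. Few islands lay near the read threshold. The 5 distal islands just inside it held 24 to 57 reads, and 8 further distal islands under it held 4 to 13. Of the 4881417 reads of the TACh-seq table, 4881209 lay in islands of at least 20 reads, so it holds almost no reads elsewhere. Joined at the same gap, the reads formed 26043 islands of any size, against 26010 with at least 20 reads. The minimum of 20 reads therefore removed few islands, and the islands largely follow the read blocks of the table as it was given. Whether the reads had been limited to called peaks beforehand was not tested. At the distance threshold, the 5 distal islands nearest to a gene lay 20009 to 20032 bp away and the 5 islands just short of it lay 19940 to 19977 bp away.

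Several of the largest read numbers had low mapping scores, and some of these lay on repeats. Of the 10 distal islands with most reads, 3 were over 50% soft-masked and 6 had a median mapping score of 30 or less on a scale that reached 42. The island with most reads lay on chromosome 14, 144.1 kb from the predicted gene Gm2237, where 11293 reads piled up on 4007 bp with a median mapping score of 14. It was 83.6% soft-masked. The next held 6792 reads on 1793 bp, 26.5 kb from Rpusd4, a mitochondrial pseudouridine synthase gene, with a median score of 15 and 605 distinct 5′ ends. The third, 35.5 kb from Pak3, held 1261 reads on 230 bp with a median score of 14. The soft-masked share was 46.35% in the island beside Rpusd4 and 11.3% in that beside Pak3. By contrast the island 77.5 kb from the predicted gene Gm36535 held 996 reads over 15422 bp, and that 52.7 kb from Irf2bpl held 849 reads over 5030 bp, both with a median score of 42. Over all distal islands, 94 (1.89%) were over 50% soft-masked, and their median read number was 98. The other nearest genes of the 10 islands were Ly6c1, Gm45925, Tpcn2, Glrp1 and Gm8797.

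**Figure D1:**
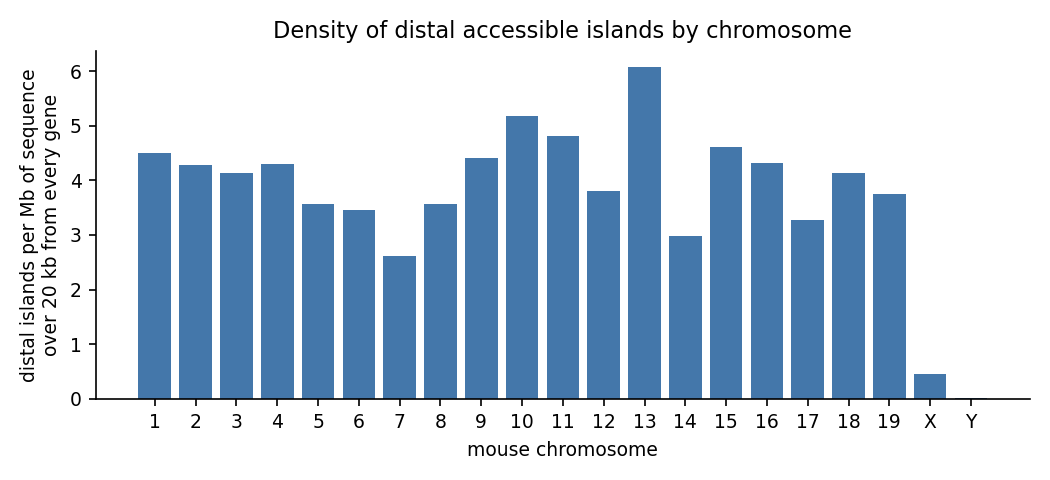
Distal islands per Mb of sequence that lies over 20 kb from every gene of the expression table, assembly gaps left out, for each mouse chromosome. Bars start at 0. The density was highest on chromosome 13 (6.07) and lowest on X (0.459) and Y (0.0229), with chromosome 7 (2.62) lowest among autosomes.

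Much of the genome could have held a distal island. Sequence over 20 kb from every gene of the table came to 1401 Mb (52.9%), and 3.55 distal islands were found per Mb of it. Autosomes held 4.09 per Mb, against 17.4 other islands per Mb in the rest of the autosomal sequence. Among autosomes the density ran from 2.62 per Mb on chromosome 7 to 5.18 on chromosome 10 and 6.07 on chromosome 13. The X chromosome held 51 distal islands (0.459 per Mb) and the Y chromosome 2. Islands away from distal sequence were also sparser on X, at 6.07 per Mb, against 17.4 on autosomes.

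Most distal islands lay well beyond the distance that defined them. The median distance to the nearest gene of the table was 73.8 kb, 64.8% lay over 50 kb away, 40.2% over 100 kb and 20.2% over 200 kb. There were 43 islands over 1000 kb from any gene of the table. The farthest, with 135 reads on 1604 bp of chromosome 1, lay 2809 kb from Dsel and between it and Gm29106. Even in the larger GENCODE M21 annotation its nearest gene was 543840 bp away.

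The expression table lists 19769 genes, whereas GENCODE M21 lists 55450, so "distal" is relative to the table. Of the 4971 islands, 980 (19.7%) overlapped a gene of GENCODE M21, and 614 (12.4%) overlapped a lincRNA, the commonest class. Whether the table lists some of these genes with a shorter span was not checked. Protein-coding genes of that annotation were overlapped by 197 islands (3.96%), and 322 islands (6.48%) came within 1 kb of an annotated gene start. Of the 4971, 2533 (51.0%) lay over 20 kb from every annotated gene. These had a median width of 2073 bp and 117 reads, close to the values of all distal islands.

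In base composition distal islands stood apart from islands at gene starts. In the 300-bp window at the densest point the median GC content was 45.3% in distal islands, 49.3% in other intergenic islands, 48.3% inside genes and 63.3% at gene starts. The median ratio of observed to expected CpG was 0.180, 0.224, 0.215 and 0.782 in the same order. A CpG ratio above 0.6 with a GC content above 50%, the usual mark of a CpG island, was found in 112 distal windows (2.25%). The share was 7.2% in other intergenic windows, 7.9% inside genes, 74.8% at gene starts and 31.5% over all islands. Of the 112, 29 (25.9%) lay within 1 kb of an annotated gene start, against 6.48% of all distal islands. The one of the 112 with most reads, 739 reads on 1040 bp nearest to Gm8797, had a median mapping score of 30. Next came an island of 616 reads on 4924 bp nearest to Ezh2, which encodes a histone H3 lysine 27 methyltransferase. An island of 608 reads on only 688 bp lay nearest to Axin2, a target and inhibitor of Wnt signalling. None of these overlapped an annotated gene.

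AP-1 matches were the commonest of the motifs searched and sat at the densest point. TGANTCA was searched on both strands in the 300-bp windows, and 2637 of 4971 distal windows (53.0%, exact 95% binomial interval 51.6 to 54.4) held at least 1 match. The share was 44.9% in other intergenic islands, 45.1% inside genes and 8.21% at gene starts, and 7.81% of 32851 RefSeq promoters of the same length held it. A central C or G, as in the classical AP-1 site, was found in 43.0% of distal windows and a central A or T in 15.5%. At least 2 matches were found in 13.2% and at least 3 in 1.81%. Per 50-bp bin, 13.6% of distal islands had a match within 100 bp of the densest point and 1.71% beyond 750 bp, a ratio of 7.95. At gene starts the ratio was 1.35. When the window was centred on the middle of the island instead, the share fell to 25.6%.

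**Figure D2:**
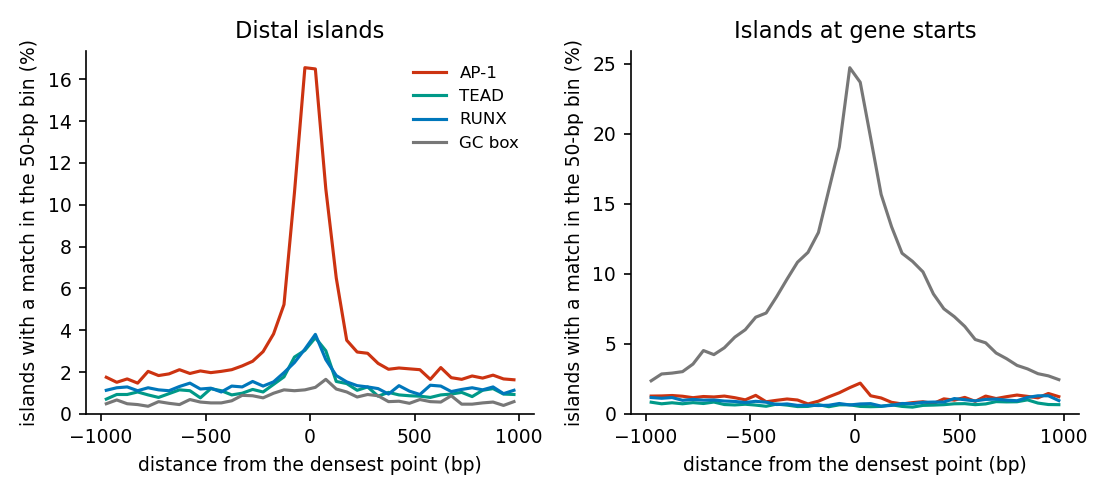
Share of islands with a motif match in each 50-bp bin, against the distance from the densest point in bp, for 4971 distal islands (left) and 9623 islands at gene starts (right). Lines stand for AP-1, TEAD, RUNX and the GC box, and the vertical scales differ. AP-1 rises at the centre of distal islands, and the GC box at the centre of islands at gene starts.

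TEAD (CATTCCA) and RUNX (TGTGGTT) matches were also more frequent in distal windows than at gene starts. TEAD matches were in 14.6% of distal windows and 3.21% of those at gene starts, and RUNX matches in 14.5% and 3.80%. Islands away from gene starts came close to distal ones. In other intergenic islands the shares were 12.7% for TEAD and 11.4% for RUNX, and inside genes 12.5% and 12.2%. Per bin, TEAD was 3.25 times and RUNX 2.53 times as frequent within 100 bp of the densest point as beyond 750 bp. RefSeq promoters held TEAD matches in 4.29% and RUNX matches in 5.27%. The motifs of promoters showed the opposite order. The GC box GGGCGG was in 5.83% of distal windows and 66.5% of windows at gene starts, and the ETS motif CCGGAAG in 1.47% and 18.8%. The E-box CACGTG, which MYC and its partner MAX bind among other factors, was in 3.50% of distal windows and 10.4% at gene starts. In distal islands its frequency near the densest point was 1.09 times that of the flanks. The CTCF motif was rare, in 0.945% of distal windows, but 8.65 times as frequent near the densest point as beyond 750 bp. It was in 2.79% of other intergenic windows, 1.44% inside genes and 0.987% at gene starts. Matches to the cyclic AMP response element TGACGTCA (0.463%), the CArG box (2.39%) and the full palindrome of NFI (0.101%) were also few. Motifs can overlap one another, and a match is a description of letters and not of binding.

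Islands with an AP-1 match differed little from the others in size. The 2637 with a match had a median width of 2050 bp and 119 reads, and the 2334 without had 2139 bp and 117 reads. TEAD matches were in 13.1% of the islands with AP-1 and 16.2% of those without, RUNX in 13.0% and 16.3%, CTCF in 0.228% and 1.76% and the GC box in 3.83% and 8.10%. With the islands ranked by reads per kb and cut into 4 equal groups, the AP-1 share was 48.5% in the sparsest group, 53.7% and 54.0% in the next and 55.9% in the densest.

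Distal islands lay in groups. With islands joined at gaps of at most 50 kb, 2948 (59.3%) had another distal island in their cluster and 2023 (40.7%) stood alone. There were 1018 clusters of at least 2 islands, of which 564 were pairs, 344 held 3 or 4, 105 held 5 to 9 and 5 held 10 or more. Clusters of 5 or more held 684 islands (13.8%) and spanned a median of 90.9 kb. Islands in these clusters had a median width of 2447 bp and 133 reads, and an AP-1 match in 47.4%. Islands alone had 1981 bp, 111 reads and a match in 54.9%.

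The largest cluster held 17 islands on 309 kb of chromosome 2 (117458856 to 117768032), between Rasgrp1, which encodes a Ras activator of lymphocytes, and the lncRNA Gm28183. Its islands held 96 to 440 reads and none overlapped a gene of GENCODE M21. The flanking genes were hardly transcribed in MEFs. Normalized FPK (fragments per kilobase divided by a spike-in score, and so comparable between genes) of Rasgrp1 was 0.00815 and 0.00804 in the low-MYC libraries and 0.0166 and 0.0195 in the high-MYC libraries, and that of Gm28183 was at most 0.0315. In this cluster 6 of 17 windows held an AP-1 match.

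The other clusters of 10 or more had at least 1 transcribed neighbour. On chromosome 5, 12 islands lay between 2410131K14Rik and Med13l, a Mediator subunit gene, 27.0 and 24.7 kb from them. Normalized FPK of Med13l was 0.212 and 0.217 in low-MYC and 0.476 and 0.495 in high-MYC cells. On chromosome 4, 12 islands began 37.5 kb from Cdkn2b, which encodes the cell cycle inhibitor p15INK4b, and 1718 kb from Elavl2, an RNA-binding protein of neurons. Cdkn2b stood at 1.00 and 1.07 in low-MYC and 3.06 and 3.19 in high-MYC cells, and Elavl2 at no more than 0.0244 in any library. In this cluster 8 of 12 windows held an AP-1 match, the highest count among the 5, beside 53.0% over all distal windows. On chromosome 16, 12 islands lay between Adamts5, an aggrecan-cleaving protease of cartilage matrix, and N6amt1. Another 10 on the same chromosome lay between Zpld1 and Nfkbiz, a nuclear regulator of NF-κB. Zpld1 was at or below 0.000758 in all 4 libraries. Nfkbiz stood at 0.543 and 0.531 in low-MYC and 2.15 and 2.17 in high-MYC cells.

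**Figure D3:**
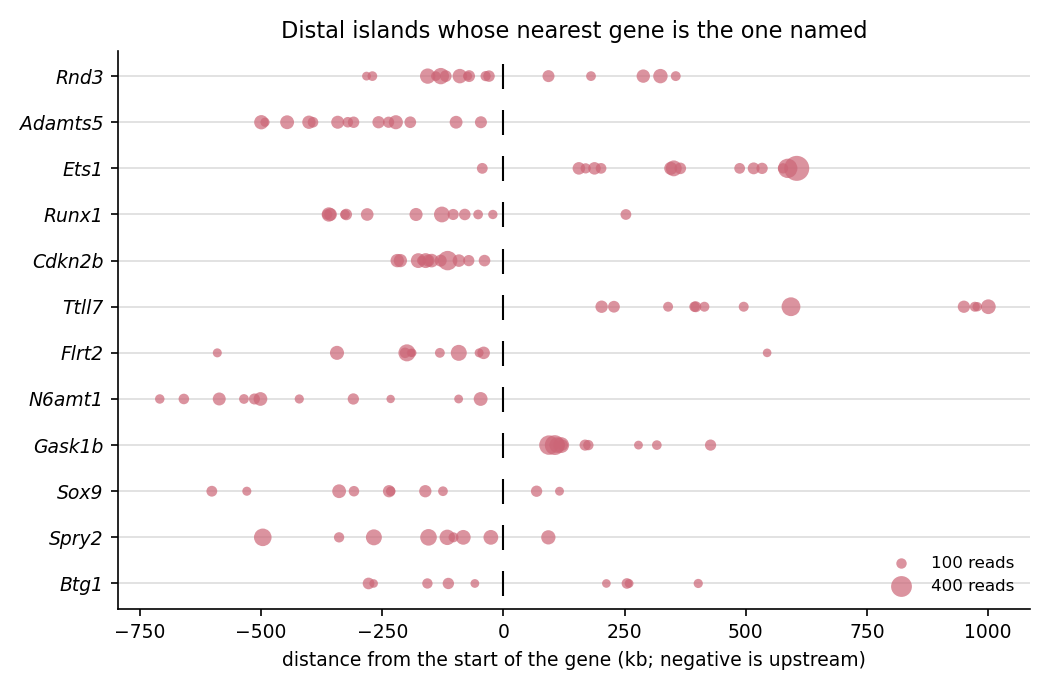
Each point is a distal island, placed by the distance of its middle from the start of its nearest gene in kb (negative is upstream, the bar at 0 marks the start), with its area set by its reads. The 12 protein-coding genes with most distal islands are shown. All 12 islands of Cdkn2b and all 14 of Adamts5 lie upstream, and all 12 of Ttll7 lie downstream.

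A small number of genes neighboured many islands. The 4971 islands had 2373 nearest genes, of which 1256 had 1 island and 120 had 6 or more, which together took 921 islands. Rnd3, an atypical small GTPase that lowers actomyosin contraction, had the most, with 16, of which 11 lay upstream and the farthest 355.4 kb downstream. Adamts5 had 14, all upstream, from -46.5 to -499.5 kb of its start. Ets1, a transcription factor gene, had 14, of which 13 lay downstream and reached 605.0 kb. Runx1, which encodes a transcription factor of the RUNX family, had 13, of which 12 lay upstream. Cdkn2b had 12, all upstream. Ttll7, a tubulin-modifying enzyme gene, had 12, all downstream. Sox9, the transcription factor gene of cartilage formation, had 10, of which the farthest lay at -601.6 kb and 2 lay downstream, and 9 of them held an AP-1 match. Spry2, an inhibitor of receptor tyrosine kinase signalling, and Btg1, an inhibitor of proliferation, had 9 each, and all 9 windows of Btg1 held an AP-1 match. Matches were less frequent at Spry2 (6 of 9), Rnd3 (9 of 16), Runx1 (7 of 13), Ets1 (7 of 14), Adamts5 (6 of 14) and Ttll7 (5 of 12). Over all distal windows the share was 53.0%.

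The levels of these genes differed widely. Rnd3 stood at 2.98 and 3.14 normalized FPK in low-MYC and 6.85 and 7.54 in high-MYC cells. Spry2 stood at 7.93 and 8.42 in low-MYC and 14.04 and 14.1 in high-MYC cells. Sox9 stood at 1.01 and 0.924 in low-MYC and 2.39 and 2.49 in high-MYC cells. Runx1 was low, at 0.0935 and 0.104 in low-MYC and 0.195 and 0.215 in high-MYC cells. Adamts5 stood at 1.01 and 0.976 in low-MYC and 3.19 and 3.42 in high-MYC cells. In each of these the high-MYC libraries lay above both low-MYC libraries. Ttll7 was at or below 0.130 in all 4.

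Over all nearest genes the level was ordinary for genes beside gene-poor sequence. Their median over the 4 libraries was 0.154 normalized FPK, against 0.152 for the 5996 genes that border distal sequence but are nearest to no distal island, and 0.231 for all genes on these chromosomes. At least 1 normalized FPK was reached by 23.5% of the nearest genes and 22.3% of the bordering genes without an island. Genes with 6 or more islands had a median of 0.342. For protein-coding genes alone the median was 0.542 with 6 or more islands, 0.279 with 3 to 5, 0.225 with 2, 0.235 with 1 and 0.201 with none. Genes with many islands also had more distal sequence nearest to them, a median of 475 kb with 6 or more islands against 32.7 kb with none.

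Counted per Mb of that sequence, with assembly gaps included, islands were denser beside genes of higher level. Protein-coding genes under 0.1 normalized FPK had 2.81 distal islands per Mb, those from 0.1 to 1 had 4.47, those from 1 to 10 had 5.59, and the 241 genes of 10 or more had 6.74. In the last class 37.3% of genes were nearest to a distal island, against 25.6% of those under 0.1. Islands and levels come from different cell preparations, and the gene an island acts on was not measured. The 5 nearest genes with the highest level were Actb (cytoplasmic actin, mean 1136), the ribosomal protein gene Rplp1 (479), Spp1 (osteopontin, 309), Gm10076 (237) and Tpt1-ps3 (229.9). The last is a pseudogene, and reads of the near-identical parent gene may be counted for it.

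**Figure D4:**
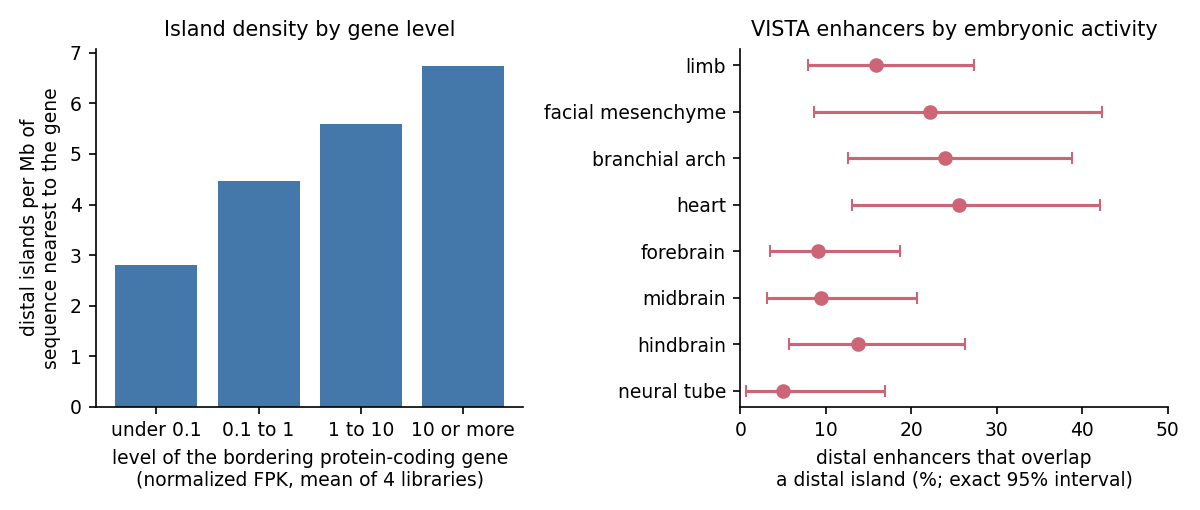
Left, distal islands per Mb of sequence over 20 kb from genes, by the level of the nearest protein-coding gene (normalized FPK, mean of 4 libraries), with bars from 0. Right, the share of VISTA enhancers over 20 kb from genes that overlap a distal island, by the embryonic tissue of their activity, with exact 95% binomial intervals. The density rises from 2.81 to 6.74 per Mb on the left, and the intervals overlap on the right.

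Some distal islands matched enhancers tested in mouse embryos. RefSeq lists 620 VISTA enhancers, elements that drove a reporter gene in transgenic embryos, of which 222 lie over 20 kb from every gene of the table. Of these, 36 (16.2%, exact 95% binomial interval 11.6 to 21.7) overlapped a distal island, and 36 distal islands (0.724%) overlapped a VISTA enhancer. The share was 18.6% (11.4 to 27.7) of 97 enhancers active in limb, facial mesenchyme or branchial arch, which hold mesenchyme. It was 8.86% (3.64 to 17.4) of 79 active in brain or neural tube and in none of those tissues. The intervals overlap and cover counting error only. Of 39 enhancers with heart activity 10 overlapped an island (25.6%, 13 to 42.1). Of the 33 active in heart and in none of limb, facial mesenchyme or branchial arch, 21.2% (8.98 to 38.9) did. The mesenchyme-bearing tissues were thus not singled out.

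The islands at VISTA enhancers covered several tissues. Enhancer mm568 (chromosome 11, 94880928 to 94883811), active in branchial arch, hindbrain, forebrain and neural tube, lay within an island of 564 reads, 51.6 kb from Col1a1, which encodes the main chain of type I collagen. Enhancer mm10 (chromosome 4, 89426411 to 89429104), active in heart, overlapped an island of 349 reads with an AP-1 match in the large cluster beside Cdkn2b. Enhancer mm1052, active in branchial arch and heart, overlapped an island of 363 reads 41.7 kb from Gask1b. Enhancer mm1295, active in forebrain, overlapped the island beside Irf2bp2 whose sequence is shown above. The enhancer with most reads, mm1444, was active in hindbrain and midbrain and overlapped the island of 849 reads beside Irf2bpl. On chromosome 16, the enhancers mm383, mm466 and mm467, active in limb or face among other tissues, overlapped 3 islands of 178 to 364 reads between Efcab1 and Ube2v2.

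The FUBP1 peak list analysed here holds 166 peaks, all on chromosome 15, and FUBP1 binding on other chromosomes was not analysed here. Chromosome 15 holds 238 distal islands. Of these, 1 (0.420%, exact 95% interval 0.0106 to 2.32) overlapped a peak by at least 1 bp, against 5.37% (3.36 to 8.09) of 391 islands at gene starts and 4.05% of 395 inside genes. Among 130 intergenic islands within 20 kb of a gene the share was 1.54% (0.187 to 5.45). That interval overlaps those of distal islands and of islands at gene starts. Of the peaks themselves, 48 lay over 20 kb from every gene, and 1 of them overlapped a distal island. That island, 36.7 kb from Ly6c1, held 992 reads on 1566 bp, was 55.8% soft-masked and had a median mapping score of 26. The peak list gives positions from 1 ChIP-seq sample, so these shares have no replicate error. In the sequence around Myc on the same chromosome, 11 distal islands of 65 to 259 reads lay between Gm38563 and Myc. The closest to Myc was 214.0 kb away, and Myc was the nearest gene of 4. Another 10 of 65 to 194 reads lay between Pvt1 and Tsg101-ps. Of the 11, 9 overlapped a gene of GENCODE M21, as did 4 of the 10, against 19.7% of all distal islands.

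Gene groups known for roles in fibroblasts and development were frequent among the nearest genes. Of 50 genes for extracellular matrix and its enzymes 22 (44.0%) were the nearest gene of a distal island, as were 28 of 67 growth factors, receptors and inhibitors (41.8%) and 30 of 74 mesenchymal and developmental transcription factors (40.5%). Among all protein-coding genes of the table the share was 11.7%. Only genes that border distal sequence can be a nearest gene. These were 36 of the 50 matrix genes, 58 of the 67 growth factor genes and 61 of the 74 transcription factor genes. Of all 15118 protein-coding genes 6482 bordered it, and 1767 were nearest genes, so part of the contrast in shares comes from gene position. Per Mb of distal sequence nearest to them, the matrix list had 13.4 islands, the transcription factor list 8.67, the growth factor list 8.13, the macrophage markers 8.49, the immediate early list 5.84 and all protein-coding genes 3.94. The higher density was thus shared by the macrophage markers, though on 5 islands. Of 19 immediate early and AP-1 factor genes 5 (26.3%) were nearest genes, with 10 islands. Of 16 macrophage markers 2 were, Ptprc (CD45) with 4 islands and Mpeg1 with 1. The lists were put together with earlier results of these data known, and these shares are a description without a test.

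Among the transcription factors, Runx1, Sox9 and Zeb2, a repressor that drives epithelial-mesenchymal transition, led with 13, 10 and 9 islands, followed by Nfib with 7 and Tcf4 with 6. Among the matrix genes Adamts5 had 14, the small proteoglycan gene Dcn and the laminin chain gene Lama4 5 each, and the collagen genes Col1a2 and Col3a1 and the thrombospondin gene Thbs2 4 each. Among growth factor genes Igfbp3, which binds insulin-like growth factors, and the Notch ligand gene Jag1 had 8 each. The chemokine gene Cxcl12, the BMP modulator gene Bmper and Tgfb2 had 6 each, and Gas1, a co-receptor of hedgehog signalling, had 5. Among immediate early genes Myc had 4 and Jun, Fosl2 and Maf 1 each.

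The RNA-seq was checked against markers before the groups were compared. Of 16 fibroblast markers 15 reached a mean of 1 normalized FPK, and their sum was 413 to 420 in low-MYC and 1010 to 1040 in high-MYC libraries. Of 16 macrophage markers 3 reached it, and their sum was 0.951 to 1.30 in low-MYC and 30.1 to 31.5 in high-MYC libraries. C1qa, Adgre1 and Tyrobp were at 0 in low-MYC replicate 1. Macrophage markers thus moved with the MYC groups, and their part in the results that follow was not tested. In bulk RNA fewer cells of a type and less RNA per cell cannot be told apart.

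High-MYC cells had more RNA of most nearest genes, as of most genes. Of 1324 nearest genes tested by limma, 664 (50.2%) passed an adjusted p under 0.01 with a rise of 2-fold or more from low-MYC to high-MYC, against a background of 55.1% of all 11870 genes tested, and 0 were lower, against a background of 0%. The number depended on the value added before the logarithm, with 1064 (80.4%) called at 0.01 and 151 (11.4%) at 1, where 84.9% and 12.2% of all genes were called. None of the nearest genes was 2-fold lower at an unadjusted p under 0.05 either. The median log2 fold change was 1.00 for nearest genes and 1.03 for all genes. The values are relative to spike-in RNA and so to cell number. With the 4 libraries brought to a common median, which takes this shift away, 46 nearest genes (3.47%) were higher at any fold, against a background of 1.76%, and 13 (0.982%) were lower, against 0.531%. The other 1049 of the 2373 nearest genes had a mean under 0.1 normalized FPK and were not tested.

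**Figure D5:**
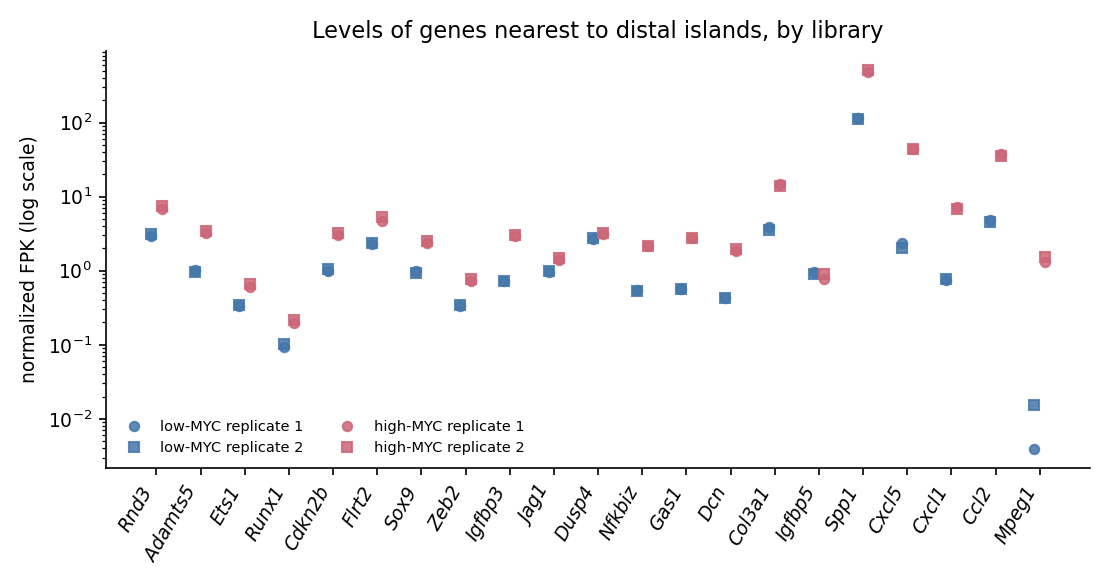
Normalized FPK on a log scale of 21 genes nearest to distal islands in each of the 4 libraries, low-MYC in blue and high-MYC in red, circles for replicate 1 and squares for replicate 2. In Igfbp5 the high-MYC libraries lie just below the low-MYC libraries, and among the genes plotted Mpeg1 and Cxcl5 show the widest gaps.

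The nearest genes with the highest fold change on the log2(normalized FPK + 0.1) scale encode chemokines and proteins of myeloid cells. The added 0.1 understates the change of Mpeg1 and Wfdc17, whose low-MYC values lie far below it, so the order of the 5 holds on this scale and not for the plain ratio. Cxcl5, a neutrophil chemokine, stood at 2.376 and 1.999 in low-MYC and 44.5 and 44.0 in high-MYC libraries, a log2 fold change of 4.28 ± 0.08 (SE, adjusted p = 1.04e-05, limma). Mpeg1, a pore-forming protein of macrophages, stood at 0.00386 and 0.0155 in low-MYC and 1.33 and 1.52 in high-MYC libraries, a log2 fold change of 3.80. Cxcl1 (3.06), Ccl2 (2.92), both chemokines, and Wfdc17 (2.78) followed. In all 5 every high-MYC library lay above both low-MYC libraries, and after rescaling their log2 fold changes were 3.13, 3.197, 1.95, 1.75 and 2.25. Each had 1 distal island except Ccl2, which had 3.

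At the other end, Igfbp5, a binding protein of insulin-like growth factors with 4 distal islands, stood at 0.958 and 0.903 in low-MYC and 0.775 and 0.897 in high-MYC libraries. The groups did not overlap but nearly met, and the log2 fold change was -0.14 ± 0.08 (adjusted p = 0.130, limma). After rescaling it was -1.20 (adjusted p = 0.00393, limma). Dusp4, a MAP kinase phosphatase gene with 7 islands, stood at 2.65 and 2.78 in low-MYC and 3.17 and 3.26 in high-MYC libraries, a log2 fold change of 0.24 that turned to -0.90 (adjusted p = 0.00223, limma) on rescaling. Jag1 behaved likewise, with 0.52 before and -0.57 (adjusted p = 0.00388, limma) after rescaling. The remaining lowest values belonged to Rpl17-ps9 (0.01), Gm7902 (0.16) and Gm3436 (0.25), each with an adjusted p above 0.3 and low levels that differed between replicates.

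The lists were read against the share of all genes called. At 2-fold with the spike-in scaling, 39 of 47 tested matrix genes, 34 of 57 growth factor genes, 24 of 53 transcription factor genes and 11 of 18 immediate early genes were higher in high-MYC cells, and 0 in any of these lists were lower, beside the background of 55.1%. After rescaling at any fold, 8 matrix genes were higher and 0 lower, 10 growth factor genes higher and 3 lower, 1 transcription factor gene higher and 0 lower, and 0 immediate early genes higher and 3 lower, beside backgrounds of 1.76% higher and 0.531% lower over all genes. All 10 tested macrophage markers were higher before rescaling and 9 after it. Among the nearest genes, Gas1 stood at 0.569 and 0.569 in low-MYC and 2.73 and 2.75 in high-MYC libraries, a log2 fold change of 2.09, or 1.01 after rescaling. Dcn (1.94, then 0.89), Igfbp3 (1.89, then 0.79), Nfkbiz (1.83, then 0.76) and Adamts5 (1.64, then 0.52) also rose under both scalings, each with a rescaled adjusted p under 0.01 by limma. Spp1 (2.14, then 0.97) did as well. For Col3a1 (1.92, then 0.76), Thbs2 (1.74, then 0.58) and Cdkn2b (1.504, then 0.39) the rescaled adjusted p by limma was between 0.0109 and 0.0150, short of the threshold. Rnd3 (1.21, then 0.05), Sox9 (1.25, then 0.15) and Flrt2 (1.06, then -0.08) passed at 2-fold with the spike-in scaling and not after rescaling.

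Ets1, Runx1 and Spry2, each with 9 or more distal islands, were not called at 2-fold on the log2(normalized FPK + 0.1) scale under either scaling. Ets1 stood at 0.331 and 0.346 in low-MYC and 0.603 and 0.667 in high-MYC libraries, a log2 fold change of 0.74 that became -0.23 (adjusted p = 0.0326, limma) on rescaling. Runx1, whose means of 0.0986 and 0.205 are close to the added 0.1, so that the scale understates its change, had 0.62 and then -0.07, and Spry2 0.78 and then -0.39 (adjusted p = 0.0162, limma). Myc, with 4 distal islands, stood at 9.81 and 9.86 in low-MYC and 20.3 and 20.5 in high-MYC libraries, and its log2 fold change of 1.04, just over 2-fold, became -0.13 (adjusted p = 0.105, limma) on rescaling.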

How the data were processed

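The authors trimmed TACh-seq reads and aligned them with Bowtie2 (mm10), and their peaks came from SICER. The deposited table lists read positions and a mapping score per read (11 to 42), and nearly every read lies in an island. The deposited FUBP1 list holds peak positions that the authors called with SICER over input, and they follow 200-bp windows. The deposited RNA signal is FPK that the authors divided by a spike-in score, from reads aligned with TopHat and quantified in Partek. Versions are not given in the sources used here, and the depth of the RNA-seq libraries is unknown.

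Distances were taken to the span from Start to Stop of each gene, Stop being 1 base past the annotated end. Myc, whose symbol is blank, was named from the table's name column. Sequence, soft-masking and VISTA elements came from RefSeq (GRCm38). Islands come from 1 table of reads, whose libraries are not known, and were described without tests. Intervals are exact (Clopper-Pearson) and cover counting error only. RNA was tested with limma 3.58.1 (trend) in R 4.3.3 on log2(normalized FPK + 0.1), a scale that understates changes of low genes, over 11870 genes whose mean reached 0.1, with Benjamini-Hochberg adjustment. The code was tested on simulated data. Replicate numbers did not pair the libraries (correlation of deviations 0.081).

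Named genes are the nearest genes of the 10 islands with most reads, those beside the 5 largest clusters, the 5 of highest level, up to 6 per list with most islands, and the 5 highest and 5 lowest fold changes, and some genes the rule names are not reported here. Genes with most islands and the VISTA, CpG-rich, farthest and Myc examples were named after their values were seen. Members and lists were chosen with earlier results of these data known.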

Additional observations from a re-analysis of the deposited data

How the results depend on the processing

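The number of distal islands stayed within 1.5 times of 4971 with gaps of 300 or 1000 bp, beyond 10 kb and without repeats. Read minima of 10 and 40 gave 4973 and 4969 islands. Counting reads of the same position and strand as 1 gave 4971, and a mapping score of at least 30 gave 4969. These read settings could hardly move the number, because few islands lay near the read threshold, so they do not test its stability. The number was 3221 beyond 50 kb, 1997 beyond 100 kb and 2535 with every annotated gene in place of the table's genes. Fewer positions qualify under each of these by construction. The median width was 1999 bp with gaps of at most 300 bp and 2032 bp beyond 100 kb. The share of islands in clusters was 61.5% with gaps of at most 300 bp, 56.2% beyond 50 kb, 51.3% beyond 100 kb, 51.9% with every annotated gene, 45.9% with clusters joined at 25 kb and 71.1% at 100 kb. The islands near a FUBP1 peak numbered 2 within 5 kb. The AP-1 share was 25.6% in windows on the middle of the island, and 54.4% and 53.2% with every annotated gene and without repeats, both chosen after seeing the data. The median level of the nearest genes was 0.193 when limited to islands within 100 kb. Of the nearest genes 1064 were called with a pseudocount of 0.01, 151 with a pseudocount of 1, 1278 at any fold and 13 with libraries rescaled to the same median. Over all genes the counts were then 10076, 1448, 11530 and 65. With the replicate block 668 were called, and without each library in turn 553 to 760, where the lone library of a group is assumed to vary like the other group. The numbers only name technical replicates, so the block is no pairing by design.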
